A study of Mus musculus with 13 samples.

Results

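IAPEz-int is the internal, protein-coding region of the IAPEz subfamily of intracisternal A particle (IAP) elements, and it was taken by its name from tables of small RNA reads assigned to mouse retrotransposon sequences. It is 1 of 262 listed retrotransposons and 1 of 25 listed IAP sequences. Male germ cells were taken from mice of the C57BL6/J strain at 3 to 4 weeks of age and purified by fluorescence-activated cell sorting (FACS) with Hoechst-33342 staining, and no treatment is named in the labels. The single-library set held spermatogonia (SG, n = 1), leptotene/zygotene spermatocytes (LZ, n = 2), pachytene/diplotene spermatocytes (PD, n = 1) and round spermatids (RS, n = 1). A second set held spermatogonia (SG_T, n = 2) and leptotene/zygotene spermatocytes (LZ_T, n = 2), each biological replicate sequenced in 2 technical replicates, at 50 and 100 bp. These were averaged for the RPM of listed sequences. Their reads were pooled for read totals, marker miRNAs and reads matched to a mapped copy. No label gives a genotype, but the names of the deposited tables mark the single-library set as wild type and the second set as Pld6 knockout, and so the knockout tag cannot be told apart from any other difference between the sets. Small RNA reads do not measure the Pld6 transcript, so the tag was not checked. The labels do not say how many animals were pooled, and p-values cover the spread between these samples.

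IAP elements are endogenous retroviral retrotransposons with long terminal repeats (LTRs) on both sides of a region coding for Gag and Pol proteins, and young copies remain active in the mouse. PIWI-interacting RNAs (piRNAs) guide PIWI proteins to such transcripts in germ cells. PLD6 (MitoPLD, Zucchini) is an endonuclease on mitochondria that contributes to primary piRNA production from precursors, and PIWIL2 (MILI) cuts complementary transcripts and so starts secondary piRNAs, the ping-pong cycle. Primary piRNAs tend to begin with U, and a secondary piRNA shares a 10-nt overlap of 5′ ends with its partner, which places A at its position 10. PIWIL2 binds shorter piRNAs than PIWIL1 (MIWI), which is present from pachytene to round spermatids.

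To place the reads within the element, a full copy was located with the study's IAPEz PCR primers, which are shown because they define the copy.
IAPEz forward primer: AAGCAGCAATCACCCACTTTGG
IAPEz reverse primer: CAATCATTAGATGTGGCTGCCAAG
The primer window of 97 bp was held by 2 of 141767 annotated mouse transcripts, and D10Wsu102e was the one that held a complete element around it. In the GRCm38 build this element lies at chr10:83465898-83473027 on the minus strand, in the last exon (4 of 4) of D10Wsu102e, a gene on the plus strand, within its 3′ UTR. Its LTRs of 333 bp each were 99.1% identical, with 3 differences, and its internal region of 6464 bp spans chr10:83466231-83472694. Positions below count from 1 at the 5′ end of that region on the element's sense strand. The copy serves as a map only, because a read can match many IAP copies.

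Shown next are 4 pairs of sense and antisense reads that overlap by 10 nt at their 5′ ends, since each held more read pairs than any other in at least 1 sample. They were chosen after their values were seen. Each is the read with the highest RPM summed over all samples at its 5′ end, written with T for U. It need not lead in each sample: the sense read at 269 made up 12 of 44 reads of its end in PD and 2 of 68 in RS. That read has 2 mismatches to the copy, and the reads at 5804, 5798 and 5807 have 1 each. The capitals mark the 10 bases of overlap, all 10 of which are complementary between partners.
Sense, 5′ end at 269: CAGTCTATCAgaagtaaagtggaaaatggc
Antisense, 5′ end at 278: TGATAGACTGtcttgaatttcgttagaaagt
Sense, 5′ end at 5326: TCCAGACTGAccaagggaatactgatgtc
Antisense, 5′ end at 5335: TCAGTCTGGAttttttgggtgagtct
Sense, 5′ end at 5795: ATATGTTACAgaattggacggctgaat
Antisense, 5′ end at 5804: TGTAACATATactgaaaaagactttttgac
Sense, 5′ end at 5798: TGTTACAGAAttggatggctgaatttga
Antisense, 5′ end at 5807: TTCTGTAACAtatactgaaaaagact
All 4 antisense reads begin with T, as do the sense reads at 5326 and 5798. All 4 sense reads have A at position 10, across from the T that begins their partners, and those at 269 and 5795 begin with C and A.

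Total reads per sample ranged from 12541019 to 29956080 in the single-library set and from 1810805 to 10764026 in the second set. In the piRNA range of 24-33 nt lay 29.8% of the SG reads, 45.2% and 39.3% of the LZ reads, 84.5% of the PD reads and 83.1% of the RS reads, but 14.8% to 23.5% in the second set. SG_T replicate 2 was the shallowest sample, with 1810805 reads. Of 6 cell type marker miRNAs, 3 had a reference sequence. Both measured meiotic miRNAs, miR-34b-5p and miR-449a-5p, summed to 5.95 RPM in SG, to 27.3 and 41.1 RPM in both LZ samples, to 104 RPM in PD and to 198 RPM in RS. They summed to 6.61 and 1.66 RPM in SG_T and to 16.4 and 15.1 RPM in LZ_T, where RPM is reads scaled to 1e6 reads of the library. The one measured somatic marker, miR-126a-3p of endothelial cells, was at 204 RPM in SG and at 58.4 and 136 RPM in both LZ samples, and low in PD (3.76 RPM) and RS (4.39 RPM). It was at 597 and 860 RPM in SG_T and at 868 and 1229 RPM in LZ_T, above every sample of the single-library set.

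IAPEz-int was the most abundant of all listed retrotransposons in every single-library sample. SG held 6982 RPM of its 24-33 nt reads, the LZ samples 4996 and 9694 RPM (7345 ± 3322, SD, n = 2), PD 3099 RPM and RS 1161 RPM. In the second set these reads stood at 561 and 236 RPM in SG_T (398 ± 229, SD, n = 2) and at 3249 and 2370 RPM in LZ_T (2810 ± 622, SD, n = 2). From the highest mean to the lowest the order was LZ, SG, PD, LZ_T, RS and SG_T. SG lay between both LZ samples, and PD lay between both LZ_T samples, so these neighbours did not differ beyond their spread, whereas RS lay below both LZ_T samples and above both SG_T samples. The technical replicates of one sample differed by at most 1.78-fold, in SG_T replicate 1.

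**Figure D1:**
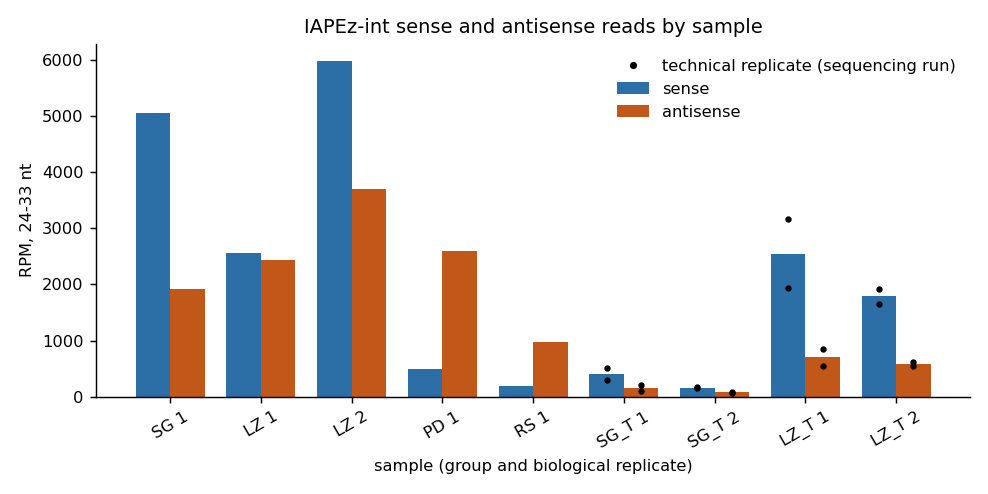
IAPEz-int sense and antisense reads of 24-33 nt (RPM) in each biological sample, with the 2 technical replicates of the second set as points on the bars of their mean. Sense reads exceed antisense reads in SG, LZ, SG_T and LZ_T, and antisense reads exceed sense reads in PD and RS.

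Along the single-library set, the total of IAPEz-int did not differ between LZ and SG past the threshold. The log2 difference, on the log2(RPM + 1) scale, was -0.0047 ± 0.59 (SE; limma adjusted p = 0.997), in a comparison in which 18.6% of 140 tested sequences were higher and 0 lower (2 lower at an unadjusted p under 0.05). PD was lower than LZ by a log2 difference of -1.17 ± 0.59 (SE), which missed the threshold (limma adjusted p = 0.125), against 30% of sequences called lower and 14.3% called higher. RS differed from PD by -1.42 ± 0.68 (SE; limma adjusted p = 0.245), also short of the threshold that 8.57% of sequences passed downwards. SG, PD and RS had 1 library each, so the spread in these fits came from LZ, SG_T and LZ_T. The direction from LZ to PD depended on the scale: per miRNA read PD was higher than LZ by 2.15 on the log2 scale (limma adjusted p = 0.025), where miRNA reads made up 7.61% and 11.1% of LZ reads and 0.921% of PD reads and the median of all tested sequences moved to 2.61.

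The strands followed different courses. Sense reads, which have the polarity of the element's own transcript, stood at 5057 RPM in SG and at 2561 and 5987 RPM in LZ, before 501 RPM in PD and 191 RPM in RS. Antisense reads, which can pair with that transcript, stood at 1925 RPM in SG and at 2436 and 3707 RPM in LZ, before 2599 RPM in PD and 970 RPM in RS. Thus the PD sample was below both LZ samples in sense reads, by 8.54-fold against their mean, while in antisense reads it lay between them. RS was 2.62-fold below PD in sense reads and 2.68-fold below it in antisense reads; these 2 libraries have no replicate.

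The antisense share of IAPEz-int reads was 27.6% for SG, 48.7% and 38.2% for the LZ samples, 83.8% for PD and 83.6% for RS. By counting error alone (95% Wilson intervals on approximate reads), PD at 83.5% to 84.2% and RS at 82.95% to 84.2% overlapped, and SG at 27.3% to 27.9% lay below both LZ samples. In the second set the share was 28.01% and 32.3% in SG_T and 21.6% and 24.5% in LZ_T, all below both LZ samples. Intervals cover counting error only, since reads without molecular identifiers are not independent molecules.

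**Figure D2:**
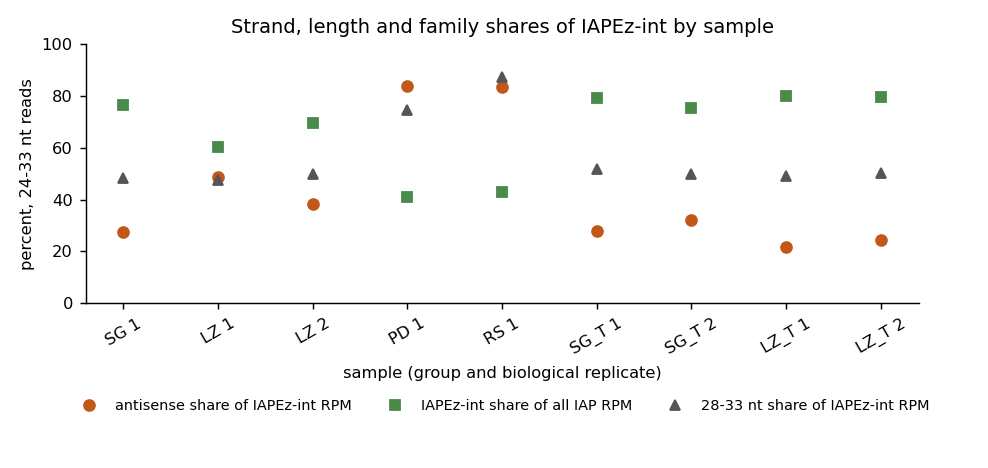
Antisense share of IAPEz-int reads, IAPEz-int share of all IAP reads and 28-33 nt share of IAPEz-int reads (percent of 24-33 nt RPM) in each biological sample. PD and RS are the only samples above 80% antisense, and they are also the lowest in their share of IAP reads (shared reads divided) and the highest in 28-33 nt reads.

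By length, IAPEz-int reads of 24-27 and 28-33 nt were about equal until LZ and mostly long from PD on. Within 24-33 nt, the longer class held 48.5% of the SG reads, 47.6% and 49.9% of the LZ reads, 74.7% of the PD reads and 87.2% of the RS reads. It held 52.0% and 49.9% in SG_T and 49.2% and 50.3% in LZ_T, so LZ_T overlapped LZ, while both SG_T samples were above SG and both LZ samples, replicate 2 by a small margin (49.92% against 49.90% in LZ replicate 2). In PD the 28-33 nt antisense reads alone stood at 1935 RPM, above the 1174 and 1875 RPM of the LZ samples, while the 24-27 nt antisense reads stood at 664 RPM, below the 1262 and 1832 RPM of LZ. In RS the same classes stood at 866 and 104 RPM. Sense reads of 24-27 nt went from 2696 RPM in SG and 1354 and 3025 RPM in LZ to 120 RPM in PD and 44.1 RPM in RS.

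Outside the piRNA range, the antisense share in PD and RS was lower. In RS it was 37.4% among reads of 11-18 nt, 30.4% at 19-23 nt, 70.2% at 24-27 nt, 85.5% at 28-33 nt and 7.74% at 34-48 nt, and in PD it was 51.7%, 49.9%, 84.7%, 83.5% and 41.7% in the same classes. The strand bias of both samples was therefore that of the 24-33 nt reads. In SG_T the 11-18 nt class was the largest, at 793 and 1113 RPM, against 1492 RPM in SG and 1488 and 2063 RPM in LZ. Reads of 24-33 nt made up 35.1% and 15.4% of all IAPEz-int reads of 11-48 nt in SG_T, below every other sample (46.9% to 69.1%). The technical replicates differed most in the 11-18 nt class, by up to 2.83-fold, with the 50-bp runs higher in all 4 samples.

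**Figure D3:**
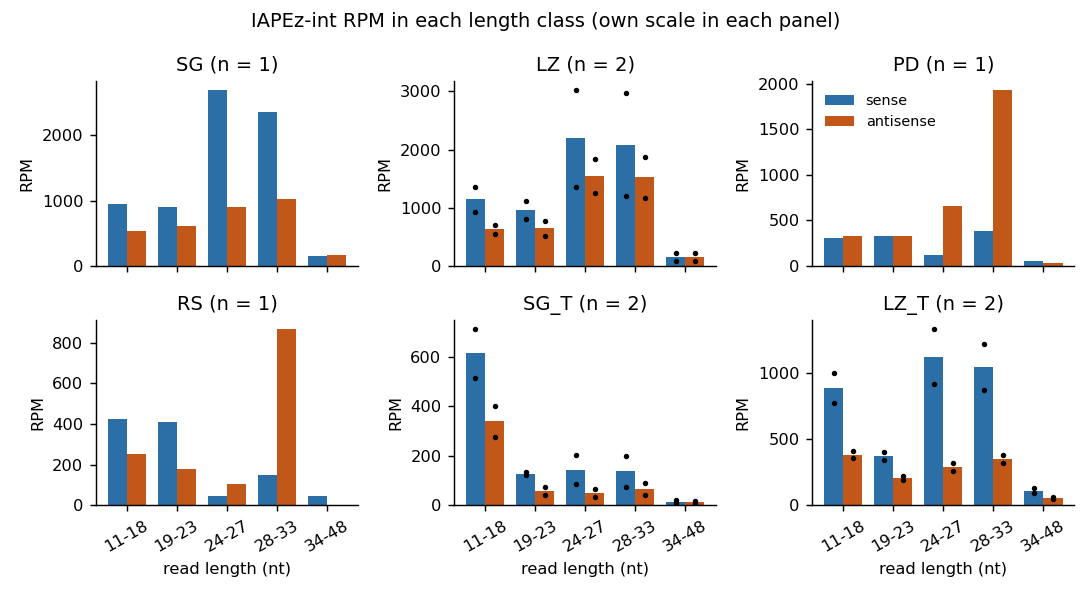
IAPEz-int RPM in each length class by strand, as the mean of a group with its samples as points where there are 2, on a separate linear scale in each panel. The 28-33 nt antisense bar stands out in PD and RS, and the 11-18 nt bars are the highest in SG_T.

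With reads that match several sequences divided between them, IAPEz-int outweighed the other 24 IAP sequences together in all samples but PD and RS. Its share of all IAP reads was 76.5% for SG, 60.4% and 69.5% for the LZ samples, 40.9% for PD and 43.0% for RS, and it was 79.2% and 75.4% in SG_T and 79.8% and 79.7% in LZ_T. Its share of antisense IAP reads, at 67.8% for SG, 51.6% and 59.5% for LZ, 38.1% for PD and 41.1% for RS, was below its share of sense IAP reads in each of these samples. Of all listed retrotransposon reads IAPEz-int took 21.2% for SG, 22.6% and 25.7% for LZ, 20.3% for PD and 17.8% for RS, so the lower RPM of PD and RS was accompanied by a similar weight in the listed total. In the second set this weight was 15.0% and 8.43% in SG_T and 14.5% and 10.1% in LZ_T, below every single-library sample, and IAPEz-int ranked at 2 and 4 in the SG_T samples and at 4 in both LZ_T samples. Above its LZ_T mean of 2810 RPM stood the SINE sequences B1_Mm, B1_Mus1 and B1_Mus2, at 7860, 4780 and 4516 RPM. These B1 reads are part of the listed total.

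Of the other IAP sequences, 9 reached 100 RPM in at least 1 group mean, namely IAPEy-int, IAPLTR1_Mm, IAPEY3-int, IAPA_MM, IAPLTR1a_Mm, IAPLTR3-int, IAPLTR2_Mm, IAPLTR2b and IAPLTR2a. In SG the nearest of them, IAPEy-int, another internal region, stood at 401 RPM. In PD, IAPLTR2b, an LTR, stood at 1642 RPM and IAPA_MM at 1408 RPM. Near-identical IAP sequences can match the same reads, which the study divided between them, so single values are uncertain. On the mapped copy, where reads were not divided, the antisense reads stood at 1923 RPM for SG, 2912 and 4162 RPM for LZ, 4104 RPM for PD and 1709 RPM for RS. The table values of IAPEz-int and IAPA_MM added up to 2022 RPM, to 2935 and 4234 RPM, to 3951 RPM and to 1621 RPM in the same samples. Counted on the copy, PD therefore stood level with the higher LZ sample in antisense reads. The copy collected 1.49 times the table value of IAPEz-int in PD and 1.68 times in RS, against 0.941 to 1.15 times in all other samples. In the second set this ratio sets pooled runs on the copy against averaged runs.

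Across the 6 group means, the sequences whose log2(RPM + 1) was most like that of IAPEz-int, among 74 of at least 10 RPM, were IAPLTR1a_Mm (Pearson r = 0.92), IAPLTR2_Mm (0.92) and IAPEY5_I (0.90). All 3 are IAP sequences, but the next was a LINE-1 sequence, L1Md_A_3end (0.89), and IAPA_MM ranked at 50 (0.60). The 6 points share libraries and total depth, so these values describe likeness only.

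Within the second set, IAPEz-int rose from SG_T to LZ_T. Its total rose by 2.93 ± 0.43 on the log2 scale, which is 7.61-fold (SE; limma adjusted p = 0.000192), in a comparison in which 43.1% of 58 tested sequences were higher and 0 lower (1 lower at an unadjusted p under 0.05), and the groups did not overlap. Its size rested on the SG_T samples: it was 3.55 without SG_T replicate 1 and 2.31 without SG_T replicate 2, and both fits passed (limma adjusted p = 0.018 and 0.042). Sense reads stood at 404 and 160 RPM in SG_T and at 2548 and 1790 RPM in LZ_T, and rose by 3.07 ± 0.39 (SE; limma adjusted p = 9.91e-11; 50% of 48 sequences were higher). The sense fit gave all 48 sequences 1 standard error, so its p leans on the whole table and cannot be set against that of antisense reads. Antisense reads stood at 157 and 76.3 RPM in SG_T and at 701 and 580 RPM in LZ_T, and rose by 2.53 ± 0.41 (SE; limma adjusted p = 0.00107; 48.7% of 39 sequences were higher). Of the 15 other IAP sequences tested for the total, 13 rose and 0 fell, with a median log2 difference of 2.02 against 0.80 over all sequences. With no filter on low values the limma adjusted p of the total was 0.221. Leaving out an SG_T sample moved the sense difference to 2.40 or 3.73 and the antisense difference to 2.02 or 3.05. Beside this rise, miR-126a-3p went from 597 and 860 RPM in SG_T to 868 and 1229 RPM in LZ_T, and the summed meiotic miRNAs went from 6.61 and 1.66 RPM to 16.4 and 15.1 RPM; their part in the result was not tested.

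The rise was shared with other classes and depended on the scale. B1_Mm, the most abundant SINE sequence, stood at 1080 and 872 RPM in SG_T and at 7352 and 8368 RPM in LZ_T, while L1_Mm_orf2, a LINE-1 coding sequence, stood at 147 and 146 RPM in SG_T and at 243 and 199 RPM in LZ_T. The total over all listed retrotransposons holds many B1 reads. B1_Mm, B1_Mus1 and B1_Mus2 averaged 7860, 4780 and 4516 RPM in LZ_T. In SG_T they averaged 976, 514 and 486 RPM, and in SG they stood at 2138, 1172 and 1131 RPM. The listed total was 22388 and 23471 RPM in LZ_T, 3745 and 2800 RPM in SG_T and 32895 RPM in SG. Rescaled to this listed total, the IAPEz-int difference was 0.11 for the total (limma adjusted p = 0.828), 0.25 for sense reads (adjusted p = 0.665) and -0.28 for antisense reads (adjusted p = 0.572). The antisense share averaged 30.2% in SG_T and 23.03% in LZ_T, with no overlap (exact permutation test, two-sided, p = 0.333, the smallest that 2 against 2 samples allow). The log2 ratio of antisense to sense reads, tested after these values were seen, differed by -0.53 ± 0.25 (SE), which missed the threshold (limma adjusted p = 0.228), where 10.5% of 38 sequences were higher and 0 lower. The share of all IAP reads was 2.44 points higher in LZ_T (exact permutation p = 0.333).

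Against the LZ samples of the single-library set, IAPEz-int was lower in LZ_T, with a larger log2 difference in antisense than in sense reads. In mean RPM, sense reads stood at 4274 in LZ and 2169 in LZ_T, and antisense reads at 3071 and 641. The log2 difference of the total was -1.33 ± 0.44 (SE), with a limma adjusted p of 0.00342, or 2.51-fold, where 91.9% of 136 sequences were lower, 2.21% were higher and the median difference was -2.87. That fit gave all sequences 1 standard error, so its p leans on the whole table. All 4 samples kept apart, with the LZ_T values below the LZ values. The call rested on single samples: without LZ replicate 2 the difference was -0.85 (limma adjusted p = 0.111), without LZ_T replicate 2 it was -1.10 (adjusted p = 0.114), and with no filter on low values the adjusted p was 0.078. Of 136 sequences, 121 had a lower log2 difference than IAPEz-int, including 18 of the 20 other IAP sequences tested, 19 of which were called lower.

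The antisense reads differed by -2.23 ± 0.38 (SE), with a limma adjusted p of 0.000342, or 4.70-fold, from 2436 and 3707 RPM in LZ to 701 and 580 RPM in LZ_T, where 93.3% of 105 sequences were lower, 4.76% were higher and the median was -2.83. Sense reads, at 2561 and 5987 RPM in LZ and 2548 and 1790 RPM in LZ_T, differed by -0.87 ± 0.50 (SE), which missed the threshold (limma adjusted p = 0.119) that 82.7% of 104 sequences passed downwards and 3.85% upwards, and the lower LZ sample was 12.8 RPM above the higher LZ_T sample. The ratio of antisense to sense reads was tested itself, after these values were seen: the difference was -1.36 ± 0.33 (SE), with a limma adjusted p of 0.00788, where 23.5% of 81 sequences fell and 22.2% rose. Over all tested sequences the median log2 difference of sense reads was -2.86, so IAPEz-int lay above the median on both strands. By shares, antisense reads were 43.5% ± 7.43 (SD, n = 2) in LZ and 23.03% ± 2.05 (SD, n = 2) in LZ_T, 20.5 points lower (exact permutation p = 0.333, the smallest possible). The share of all IAP reads was 14.8 points higher in LZ_T, with no overlap (exact permutation p = 0.333).

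In spermatogonia IAPEz-int was also lower in the second set. SG_T differed from SG by -4.26 ± 0.59 (SE) in log2, with a limma adjusted p of 8.51e-05, or 19.1-fold, where 87.9% of 140 sequences were lower, the median was -2.86 and SG was a single library. All 20 other IAP sequences tested were called lower, with a median of -3.90. Without SG_T replicate 1 the difference was -4.88, and without SG_T replicate 2 it was -3.64. In RPM the distance between the sets was larger than in LZ, but rescaled to the listed total it was -0.92 for SG_T against SG (limma adjusted p = 0.163) and -0.99 for LZ_T against LZ (limma adjusted p = 0.00629). The step from SG_T to LZ_T exceeded the step from SG to LZ by 2.93 ± 0.76 (SE; limma adjusted p = 0.023), where 7.86% of 140 sequences were called in this direction and 11.4% in the other, but this call was lost in 12 of the 13 alternatives tried, and on the listed total the difference between steps was -0.077. B1 sequences were a larger part of the listed total in the second set than in SG and LZ, with B1_Mm averaging 7860 RPM in LZ_T and 1425 RPM in LZ. In these contrasts miR-126a-3p was higher and the meiotic miRNAs were lower in LZ_T than in LZ, at the levels given above, and their part in the result was not tested. Fewer cells of a type and less RNA per cell cannot be told apart in these libraries.

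The first base of the antisense reads also separated the sets, while RS lay within the range of the second set in sense reads. On the copy, U began 81.0% of the sense and 70.8% of the antisense reads of SG, 75.2% and 76.9% of sense and 84.3% and 78.2% of antisense reads in LZ. The sense and antisense values were 69.2% and 91.8% for PD and 56.3% and 93.8% for RS. The antisense value was the higher one in LZ, PD and RS, and the sense value in SG. In the second set U began 58.5% and 57.8% of sense and 59.4% and 55.9% of antisense reads in SG_T, and 55.3% and 54.4% of sense and 58.8% and 61.2% of antisense reads in LZ_T. LZ_T was below both LZ samples on both strands, by 21.2 points in each (exact permutation p = 0.333 for each), and SG_T was below SG. SG_T replicate 2 rested on 277 sense and 145 antisense reads, with a 95% Wilson interval of 47.7% to 63.7% for its antisense value.

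Position 10 carried A in 46.4% of the sense reads of SG, 51.3% and 52.4% for LZ, 61.3% for PD and 72.8% for RS. Among antisense reads A was there in 57.2% for SG, 35.6% and 47.5% for LZ, 16.95% for PD and 13.03% for RS. The strands thus moved apart towards RS, with A at position 10 frequent in the sense reads and U at position 1 frequent in the antisense reads. Part of the low antisense values came from 1 end, at 278, described below. Without it A stood at position 10 in 59.4% of antisense reads for SG and 43.5% and 52.6% for LZ. For PD and RS it was 32.3% and 31.5%. In LZ_T the values were 51.3% and 51.5% for sense and 46.2% and 45.6% for antisense reads, and the sense values overlapped those of LZ (exact permutation p = 1).

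Along the element, sense reads were spread over the internal region, with the most between 5501 and 6000 in every group but RS, where the first 500 nt held 33.8% of them, while antisense reads in PD and RS were concentrated near its start. The first 500 nt held 16.6% of antisense reads for SG, a mean of 41.8% for LZ, 77.2% for PD and 87.0% for RS, and a mean of 17.5% in SG_T and 21.9% in LZ_T. In RPM this window stood at 319 for SG, 1447 for LZ, 3166 for PD and 1487 for RS. The rest of the region stood lower in PD than in SG or LZ, at 1604 RPM for SG, 2090 for LZ and 938 for PD. In LZ_T the window 5501-6000 held a mean of 33.9% of sense and 31.6% of antisense reads, against 22.9% and 8.57% in LZ.

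**Figure D4:**
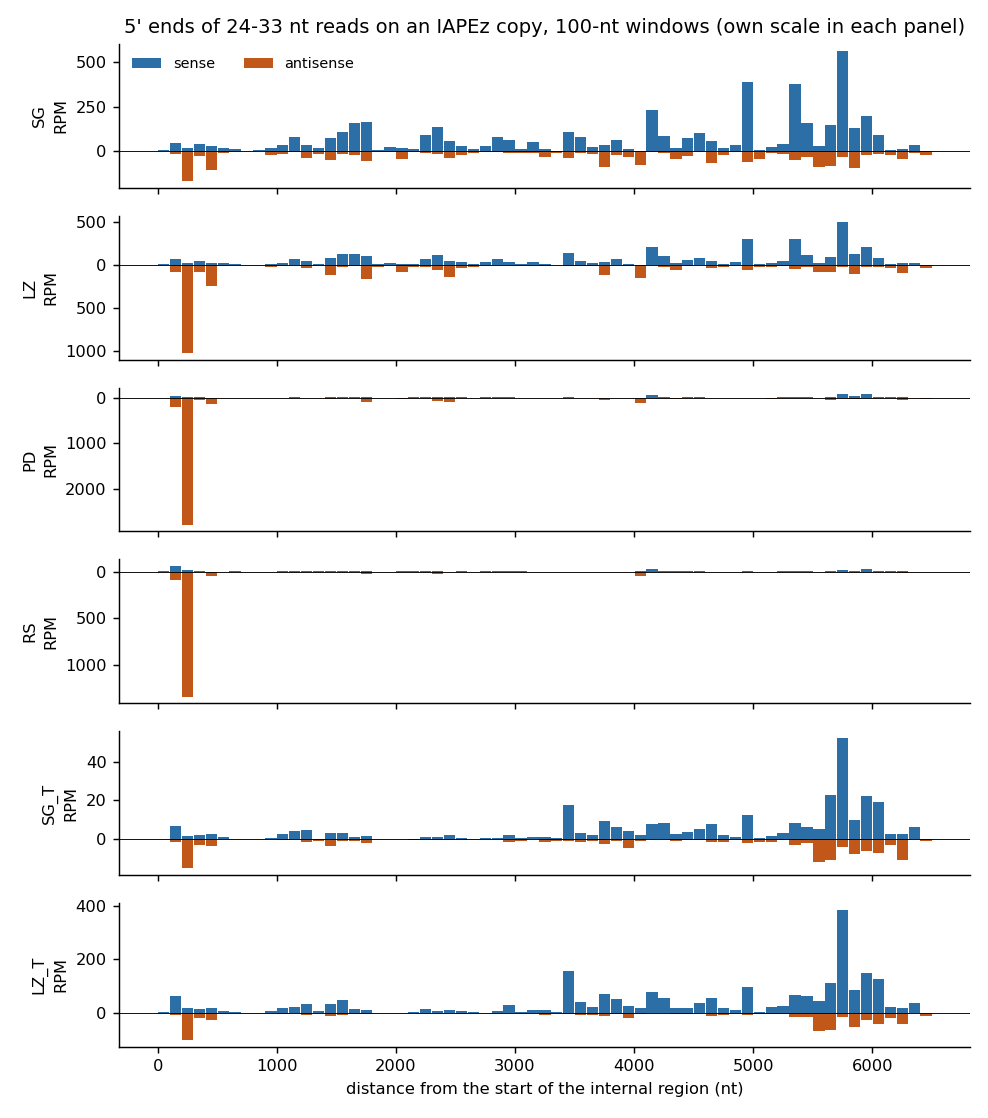
5′ ends of 24-33 nt reads along the internal region of the IAPEz copy, in 100-nt windows, as the mean RPM of each group, with sense reads upwards and antisense reads downwards and a separate scale in each panel. In PD and RS 1 antisense window near the start stands far above all others, and in SG_T and LZ_T the window 5501-6000 holds 40.3% and 33.9% of sense reads and 30.2% and 31.6% of antisense reads. The highest single antisense window of SG_T and LZ_T also lies near the start, at 201-300.

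A single 5′ end accounted for much of this window. Antisense reads that began at position 278 stood at 71.4 RPM for SG, 528 and 399 RPM for LZ, 1955 RPM for PD and 1004 RPM for RS. The most abundant of them over all samples is printed above. Of the antisense reads on the copy they were 3.71% for SG, 18.1% and 9.59% for LZ, 47.6% for PD (95% Wilson interval 47.2% to 48.1%) and 58.7% for RS (58.0% to 59.4%). In the second set they stood at 3.78 and 3.31 RPM in SG_T and at 22.8 and 27.5 RPM in LZ_T, or 2.77% and 4.36% of antisense reads in LZ_T. The end was chosen as the one with the most antisense reads in PD, so its height and interval in PD describe that choice. It was also the leading antisense end in SG, both LZ samples and RS, but in no sample of the second set. There the leading antisense end was nearby, at 281, in both LZ_T samples (6.06% and 8.06%) and in SG_T replicate 2 (4.83%). In SG_T replicate 1 it was at 6272 (6.10%). PD was above both LZ samples, an order that the choice of the end in PD favours. Both LZ_T samples were below both LZ samples (difference in share 10.3 points, exact permutation p = 0.333).

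Reads from this end differed in length between stages. Their most frequent length was 26 nt in SG and LZ and 31 nt in PD and RS, and 32.1% of them were of 28-33 nt for SG, 35.0% and 26.4% for LZ, 80.4% for PD and 93.4% for RS. The other antisense reads showed 53.6% for SG, 49.05% and 50.1% for LZ, 72.9% for PD and 85.9% for RS, so the longer reads of PD and RS were not particular to this end. Without it, the antisense share on the copy was 80.9% in PD and 74.2% in RS, still above the 49.9% and 40.1% of LZ, and U still began 87.0% and 89.2% of the antisense reads in PD and RS. A at position 10 of the antisense reads was at 32.3% in PD and 31.5% in RS when the end was left out, against 43.5% and 52.6% in LZ and 59.4% in SG.

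Sense and antisense 5′ ends overlapped by 10 nt more often than by any other length from 1 to 20 nt in every sample, with up to 2 mismatches allowed. The read pairs at 10 nt over the mean at the other lengths gave a ratio of 8.29 for SG, 6.13 and 7.10 for LZ, 13.9 for PD, 26.3 for RS, 7.83 and 5.05 in SG_T and 8.03 and 8.70 in LZ_T. Both LZ_T samples were above both LZ samples (exact permutation p = 0.333), but this order depended on the mismatches allowed. Without mismatches the ratio was 6.56 and 10.1 for LZ against 8.02 and 8.95 for LZ_T, and SG (14.0) was above PD (11.9). In the same setting RS was at 34.5, SG_T replicate 1 at 11.6 and SG_T replicate 2 at 1.06. With up to 2 mismatches, in SG_T replicate 2, with 422 reads on the copy, the pairs at 11 nt were nearly as many as those at 10 nt (4.13 and 4.20 times the mean over all lengths).

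**Figure D5:**
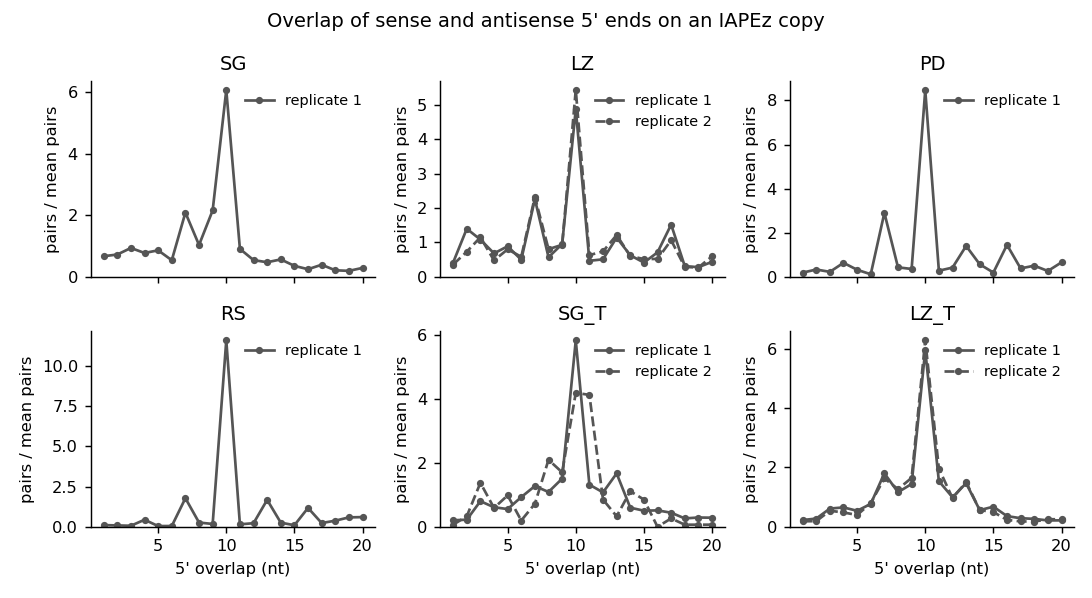
Read pairs of sense and antisense 5′ ends on the IAPEz copy at each overlap from 1 to 20 nt, relative to the mean over these lengths, with a line for each biological replicate. All samples have their highest point at 10 nt, and in SG_T replicate 2 the point at 11 nt is almost as high.

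The ratios of PD and RS came from 1 pair. The pair of ends at 269 and 278 held 84.0% of all 10-nt pairs in PD and 95.01% in RS, against 20.2% and 7.66% in LZ, 1.11% in SG and 0.925% and 1.62% in LZ_T. Its sense partner was rare, at 3.31 RPM in PD and 5.42 RPM in RS. Without the antisense end at 278 the ratio was 2.98 in PD and 1.62 in RS, below the 5.28 and 6.72 of LZ and the 8.24 of SG, and it was 8.13 and 8.71 in LZ_T. The pair at 5326 and 5335 led in SG with 19.7% of pairs, and the pair at 5798 and 5807 led in LZ replicate 2 with 11.03%. In the second set the pair at 5795 and 5804 led in all 4 samples, with 18.2% and 21.9% of pairs in SG_T and 30.5% and 32.6% in LZ_T. The sense end at 5326 was lower in LZ_T than in LZ: it stood at 317 RPM in SG and 164 and 361 RPM in LZ, and at 35.0 and 31.6 RPM in LZ_T, whereas the sense end at 5795 stood at 99.9 RPM in SG, 83.5 and 142 RPM in LZ and 140 and 99.7 RPM in LZ_T. These ends were picked because their pairs led in SG and in the second set, which favours this contrast. It was not tested. Over all tested sequences the median log2 difference of sense reads in LZ_T against LZ was -2.86.

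The PCR window lies at positions 3912 to 4008. Over all 13 libraries, 788 reads of 24-33 nt held at least 16 consecutive bases of a primer or its complement, 117 of them sense and 671 antisense.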

How the data were processed

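Small RNA libraries (TruSeq Small RNA kit) were made from total RNA of sorted germ cells. The authors trimmed adapters (cutadapt, per the labels), took out abundant noncoding RNA and miRNA reads with SeqMap and assigned the rest to retrotransposon consensus sequences with up to 2 mismatches, dividing reads that matched several. The deposited tables hold these values as RPM, scaled to 1e6 library reads. The deposited read lists hold counts of each distinct sequence. Their totals ranged from 852565 to 29956080 per library; 1 line without a count was left out. The approximate reads behind a table value are its RPM multiplied by the library total.

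Technical replicates were averaged, and LINE, SINE and LTR sequences (19, 6 and 237) that averaged 1 RPM or more were tested on log2(RPM + 1) with limma 3.58.1 (R 4.3.3, Benjamini-Hochberg, threshold 0.05): LZ_T against SG_T or LZ on those samples, other comparisons on all 6 groups. limma was checked on simulated data. For the LZ_T against LZ total and the LZ_T against SG_T sense reads it gave all sequences 1 standard error, so those p-values lean on the whole table. Shares were compared by two-sided exact permutation tests (SciPy 1.17.1) in a family of 20, in which the smallest p of 0.333 became 0.556 after adjustment. Reads of 24-33 nt from the deposited lists were matched to the IAPEz copy with up to 2 mismatches (numba 0.67.0), and its LTRs were found with BLAST+ 2.17.0 in GENCODE transcripts. miRNA reads shared the first 18 nt of a RefSeq mature sequence and differed in length by at most 3 nt.

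IAPEz-int was always named. Other IAP sequences were named at 100 RPM or more in a group mean, 3 sequences for likeness with L1Md_A_3end as the next, and B1_Mm and L1_Mm_orf2 for contrast. B1_Mus1 and B1_Mus2 were named as large parts of the listed total. Exceptions are stated. The members and lists were chosen with earlier results of these data known.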

Additional observations from a re-analysis of the deposited data

Results flagged for a closer look

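The difference between the LZ_T minus SG_T step and the LZ minus SG step of IAPEz-int was 2.93 on the log2(RPM + 1) scale (SE 0.76; limma adjusted p = 0.023 for the difference itself). It stood out because the step differed between the sets: LZ_T was above SG_T in all 4 pairings of samples, whereas SG lay between both LZ samples. SG was a single library, and the sets also differ in depth and in the knockout tag of the tables, which cannot be told apart.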

How the results depend on the processing

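The log2 differences of IAPEz-int kept their direction and call under most alternatives, with these exceptions, each cause not tested unless stated. With no filter on low values, which raises the sequences tested to 262, the adjusted p of LZ_T against SG_T was 0.221 for the total (2.93), 0.389 for sense (3.07) and 0.261 for antisense (2.53), and that of LZ_T against LZ was 0.078 for the total (-1.33). Rescaled to the listed total, LZ_T against SG_T was 0.11 for the total, 0.25 for sense and -0.28 for antisense reads, SG_T against SG was -0.92 and LZ against SG was 0.18, all short of the threshold. Rescaled to miRNA reads, LZ against SG was 0.75, PD against LZ was 2.15 (adjusted p = 0.025) and the sense reads of LZ_T against LZ passed at -1.53. Those sense reads also passed with technical replicate 1 only (-1.13). The difference between steps (2.93) lost its call with a pseudocount of 0.1 RPM (2.94) or 5 RPM (2.92), no filter (2.93), miRNA reads (1.47) and technical replicate 2 only (2.91), and on the listed total it was -0.077.

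Leaving out 1 sample gave 2.31 to 3.55 for the LZ_T against SG_T total, 2.40 to 3.73 for sense and 2.02 to 3.05 for antisense. It gave -1.80 to -0.85 for the LZ_T against LZ total, -1.49 to -0.26 for sense and -2.54 to -1.93 for antisense. It gave -4.88 to -3.64 for SG_T against SG, -0.48 to 0.47 for LZ against SG (0.47 without LZ replicate 1), -1.64 to -0.69 for PD against LZ and 2.31 to 3.55 for the difference between steps, whose call was lost each time (adjusted p = 0.051 to 0.263). The antisense share difference ranged from -9.28 to -4.97 points against SG_T and from -25.7 to -15.2 points against LZ, and that of the IAP share from 0.574 to 4.30 and from 10.2 to 19.4 points. By limma on the log2 ratio of antisense to sense RPM, added after seeing the data, LZ_T against LZ was -1.36 (adjusted p = 0.00788).

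In a fit with a replicate block, the total of IAPEz-int was 2.93 in LZ_T against SG_T (adjusted p = 3.93e-13; 30 sequences higher and 4 lower, against 25 and 0) and -1.33 in LZ_T against LZ (adjusted p = 0.0117), and no call of IAPEz-int changed. The adjusted p of 3.93e-13 leans on the spread of the whole table, because the block leaves little spread to measure within 1 sequence. The numbers are not said to mark shared animals, and same-numbered samples correlated at 0.109 in the first comparison and -0.194 in the second. With crossed numbers, tried for the second, 128 sequences were lower and 3 higher, and the sense reads of IAPEz-int passed (-0.87). Length classes of 25-28 and 29-32 nt were not run, because the tables have other classes; shares of the 24-27 and 28-33 nt classes kept their direction. A primer match of 20 bases left 101 of 788 reads at the PCR window, 56 of them sense and 45 antisense, so the excess of antisense reads was lost. Without mismatches, the end at 278 held 61.1% of antisense reads in PD and 71.0% in RS. SG_T replicate 2, at 422 reads on the copy, limits the values of SG_T.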
